A study of Mus musculus with 24 samples.

Results

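Distal open chromatin sites that were found in wild-type granulocyte-monocyte progenitors (GMPs) but in neither of the 2 earlier populations were the subject of this description. They were the intervals of the Daxx-WT GMP peak list that lay over 1 kb from every annotated transcription start site and overlapped no interval, by as little as 1 bp, of the Daxx-WT long-term haematopoietic stem cell (LT-HSC) or common myeloid progenitor (CMP) lists. Of 65306 intervals in the Daxx-WT GMP list, 45659 were distal and 8630 of these met the rule (18.9% of the distal intervals and 13.2% of the list). They are called GMP-only peaks below. The 3 Daxx-WT lists themselves chose them, so their presence in the one list and absence from the other 2 is their definition and not a result.

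GMPs are the bone-marrow progenitors restricted to neutrophils, monocytes and their relatives. They arise from LT-HSCs by way of CMPs, and the transcription factors Pu.1 (encoded by Spi1) and C/EBPα open and activate myeloid enhancers on this route, with Pu.1 acting from early stages and C/EBP proteins driving the granulocytic and monocytic programme. Daxx is a chaperone that deposits the histone variant H3.3, with Atrx, at repeats and other silenced or regulated sites. Peaks far from start sites mostly mark enhancers and other regulatory elements, and a gene named here is only the one with the nearest start site.

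Chromatin accessibility was measured with ATAC-seq (the enzyme Tn5 cuts and tags DNA where it is open) in 24 libraries of sorted mouse bone-marrow cells (C57BL/6). Wild-type (Daxx-WT) mice were Daxx +/+ Cre +/- and knockout (Daxx-KO) mice were Daxx F/F Cre +/-, so that all groups carried Cre. Each genotype had 2 libraries of LT-HSCs, 2 of CMPs and 2 of GMPs with no time in their labels, which came, per the study's methods, from Rosa26CreERT2 mice 3 weeks after tamoxifen, a driver present in all tissues. LT-HSCs at 3 days post induction (d.p.i.) had 2 Daxx-WT and 3 Daxx-KO libraries. For these the methods give the same driver with tamoxifen injected on a different schedule, where the mice above received it by mouth, and a figure legend of the study lists Daxx +/F beside Daxx +/+ controls, so a Daxx-WT library at 3 d.p.i. may be heterozygous although the labels give Daxx +/+ for both. KLS cells (c-Kit+ Lin- Sca-1+, a mixture of stem and multipotent progenitor cells) at 3 weeks post induction (w.p.i.) had 2 Daxx-WT, 3 Daxx-KO and 2 DKO libraries, the last from mice that carry Cre +/- with both Daxx F/F and Pu.1 F/F, so that they lose Daxx and Pu.1. For induction in the Daxx-KO and DKO mice of this arm the methods describe Mx1Cre, a driver switched on with pI:pC, although their ATAC-seq section does not repeat the driver for KLS cells. The methods give a general age range in weeks at treatment, and no age for a single group. The files hold no expression values, so the loss of Daxx or Pu.1 was not checked here. The authors deposited 1 peak list per group, 11 in all, and 3 tables of differential sites. A list has no replicates, and the intervals given after shares are 95% Wilson intervals that cover counting error only.

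The lists differed in length and protocol, which bears on every share below. The 6 lists without a time label held 49677 to 70455 intervals and the Daxx-KO GMP and CMP lists were the shortest of them (49677 and 50590). The 5 lists of KLS cells and of LT-HSCs taken at 3 d.p.i. were prepared with a different lysis protocol and held 22156 to 44694 intervals, with the DKO list the shortest. In the headers of the tables the libraries averaged 4.21 to 16 reads per window of 600 bp, and each DKO library (9.98 and 16) was above both Daxx-WT KLS libraries (8.35 and 7.45).

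Sequences of 11 GMP-only peaks are shown because they lie nearest to myeloid genes on which the results below turn. Each is the central 200 bp on the plus strand of mm10 (reference GRCm38 from RefSeq), in lower case, with capitals marking a match to the Pu.1 motif GAGGAAGT or the C/EBP motif TTGCNNAA on either strand. The first 2 had a peak in both Daxx-KO LT-HSC lists and in neither Daxx-WT LT-HSC list. Ccr2 encodes the chemokine receptor of inflammatory monocytes and Zeb2 a zinc-finger factor of monocyte and dendritic cell fate, and neither window held either motif. Each of the other windows holds a match, whereas 67% of GMP-only peaks hold neither motif, so the windows shown are not typical in this respect. Elements without a motif at genes of the same lists, such as those at Rxra, are not shown. Chil3 and Itgb2 are neutrophil genes (a chitinase-like protein and the β chain of leukocyte integrins), Srgn and Ctsc act in granules (a proteoglycan and a protease activator), and Cybb encodes the catalytic subunit of the NADPH oxidase. The last 3 were added after their values were seen, as C/EBP-motif elements with a peak in DKO KLS cells near S100a9 (a calprotectin subunit), Il1r1 and Ifngr1 (receptor subunits for interleukin-1 and interferon-γ).
Ccr2, between genes, chr9:124081477-124081676: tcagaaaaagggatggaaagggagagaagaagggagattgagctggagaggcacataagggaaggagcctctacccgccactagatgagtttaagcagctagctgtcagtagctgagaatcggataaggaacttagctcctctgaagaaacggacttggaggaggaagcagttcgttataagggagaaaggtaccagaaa
Zeb2, intron, chr2:45034028-45034227: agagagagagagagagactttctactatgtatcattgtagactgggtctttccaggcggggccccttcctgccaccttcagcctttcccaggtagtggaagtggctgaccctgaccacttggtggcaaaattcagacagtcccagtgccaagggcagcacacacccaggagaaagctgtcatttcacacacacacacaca
Chil3, between genes, chr3:106170739-106170938: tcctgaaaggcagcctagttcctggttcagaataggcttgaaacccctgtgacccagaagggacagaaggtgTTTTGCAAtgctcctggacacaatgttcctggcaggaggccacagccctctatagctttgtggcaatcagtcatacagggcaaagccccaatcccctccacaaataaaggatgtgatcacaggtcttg
Zeb2, intron, chr2:45085701-45085900: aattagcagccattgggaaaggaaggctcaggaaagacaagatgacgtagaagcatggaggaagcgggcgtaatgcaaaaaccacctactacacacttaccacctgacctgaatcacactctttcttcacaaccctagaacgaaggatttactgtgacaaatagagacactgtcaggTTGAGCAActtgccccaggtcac
Srgn, intron, chr10:62509218-62509417: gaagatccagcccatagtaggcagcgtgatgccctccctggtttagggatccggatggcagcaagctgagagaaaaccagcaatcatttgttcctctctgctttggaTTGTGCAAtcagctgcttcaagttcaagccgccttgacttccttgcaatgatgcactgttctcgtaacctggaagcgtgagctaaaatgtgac
Cybb, intron, chrX:9462801-9463000: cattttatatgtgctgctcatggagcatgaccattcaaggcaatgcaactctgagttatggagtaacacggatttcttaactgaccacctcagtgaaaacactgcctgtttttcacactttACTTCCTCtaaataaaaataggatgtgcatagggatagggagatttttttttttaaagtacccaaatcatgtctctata
Itgb2, intron, chr10:77548692-77548891: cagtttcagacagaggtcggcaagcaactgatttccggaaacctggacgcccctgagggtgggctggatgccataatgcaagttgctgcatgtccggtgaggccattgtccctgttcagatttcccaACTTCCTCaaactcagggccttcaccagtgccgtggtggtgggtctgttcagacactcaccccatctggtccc
Ctsc, between genes, chr7:88244431-88244630: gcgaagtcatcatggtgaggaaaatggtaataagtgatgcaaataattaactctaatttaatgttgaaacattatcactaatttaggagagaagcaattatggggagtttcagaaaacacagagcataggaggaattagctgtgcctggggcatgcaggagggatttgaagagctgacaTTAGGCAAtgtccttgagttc
S100a9, between genes, chr3:90702520-90702719: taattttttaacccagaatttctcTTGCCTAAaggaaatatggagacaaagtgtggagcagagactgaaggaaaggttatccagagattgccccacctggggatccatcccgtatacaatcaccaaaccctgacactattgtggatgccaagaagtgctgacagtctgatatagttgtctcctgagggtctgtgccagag
Il1r1, intron, chr1:40229119-40229318: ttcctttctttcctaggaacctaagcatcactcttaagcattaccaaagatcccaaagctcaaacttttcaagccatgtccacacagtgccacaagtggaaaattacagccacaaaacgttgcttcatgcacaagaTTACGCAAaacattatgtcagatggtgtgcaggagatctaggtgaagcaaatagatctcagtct
Ifngr1, intron, chr10:19598166-19598365: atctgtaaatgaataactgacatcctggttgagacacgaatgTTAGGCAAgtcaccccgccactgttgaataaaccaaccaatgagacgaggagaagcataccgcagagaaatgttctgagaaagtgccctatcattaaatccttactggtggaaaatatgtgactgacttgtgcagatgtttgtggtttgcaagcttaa

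GMP-only peaks were narrow. Their median width was 432 bp, against 560 bp for the other distal Daxx-WT GMP peaks, 439 bp for distal peaks held by Daxx-WT CMPs alone (CMP-only, 4502 peaks) and 697 bp for those held by Daxx-WT LT-HSCs alone (LT-HSC-only, 13562 peaks). The centre lay in an intron for 55%, between genes for 39.6% and in an exon for 5.45%. The median distance from the edge of a peak to the nearest start site was 9.76 kb, the mean GC content within 100 bp of the centre was 47.4%, and 17.5% of those bases were repeats. These values were close to those of CMP-only peaks (48.6% GC, 17.9% repeats, 11.2 kb). At the edges of the rule, the closest GMP-only peak to a start site was at 1001 bp and the farthest peak left out for its distance was at 999 bp, with 1065 otherwise qualifying peaks left out. The smallest gap to a Daxx-WT LT-HSC or CMP peak was 5 bp, the median gap was 3968 bp, and 74 GMP-only peaks had such a neighbour within 100 bp.

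The genes nearest to GMP-only peaks included neutrophil and granule genes at a higher density than those of the other distal Daxx-WT GMP peaks. Monocyte genes and myeloid factors were no denser by the nearest start site of any gene. They were denser by the nearest protein-coding one, but so were stem cell and erythroid genes. The 8630 peaks were spread over 6371 genes, 3564 of them protein-coding, of which 4839 had a single GMP-only peak and 54 had 5 or more. All 200 genes of 11 lists of haematopoietic genes were in the annotation. Late neutrophil genes had 13 GMP-only peaks at 9 of 22 genes (1.51 per 1000 peaks), against 2 LT-HSC-only (0.147 per 1000), 0 CMP-only and 35 of the other distal GMP peaks (0.945 per 1000). Primary granule genes, which encode the proteases and peroxidase packed first in granulocytes, had 9 at 5 of 10 genes (1.04 per 1000), against 2 LT-HSC-only (0.147 per 1000), 3 CMP-only (0.666 per 1000) and 25 of the other distal GMP peaks (0.675 per 1000). Myeloid cytokine receptors had 16 at 11 of 20 genes (1.85 per 1000, against 1.38 in the other distal GMP peaks). Monocyte and macrophage genes had 13 at 10 of 20 genes (1.51 per 1000), below the 1.65 of the other distal GMP peaks and near the 1.33 of CMP-only peaks. Granulocyte and monocyte transcription factors had 13 at 9 of 20 (1.51 per 1000), no more than the other distal GMP peaks (1.67) or LT-HSC-only peaks (1.55). Against LT-HSC-only peaks the order was the other way for stem cell genes, with 10 GMP-only peaks (1.16 per 1000) against 37 LT-HSC-only peaks (2.73 per 1000), and for erythroid and megakaryocyte genes (6 against 16, or 0.695 against 1.18 per 1000). Lymphoid genes had 7 GMP-only peaks, dendritic cell genes 3, mast cell, basophil and eosinophil genes 2, and interferon-stimulated genes 2. These counts are small and describe the lists, with no test. Assigning peaks to the nearest protein-coding start site, an alternative chosen after seeing the data, raised the counts to 36 for monocyte and macrophage genes, 45 for the factors (5.21 per 1000 against 3.1 for LT-HSC-only peaks), 31 for the receptors, 19 for erythroid and megakaryocyte genes (2.2 against 2.21 per 1000) and 22 for stem cell genes (2.55 against 6.41 per 1000). Under it the density in GMP-only peaks exceeded that in the other distal GMP peaks for monocyte and macrophage genes (4.17 against 3.7 per 1000). The same held for the factors (5.21 against 4.19 per 1000). It also held for stem cell genes (2.55 against 2 per 1000) and erythroid and megakaryocyte genes (2.2 against 1.76 per 1000). Lymphoid genes went the other way (2.2 against 2.51 per 1000). The higher density under this assignment was therefore not particular to myeloid genes.

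Among the primary granule genes, Ctsc had 4 GMP-only peaks, Srgn 2, and Mpo (myeloperoxidase), Ctsg (cathepsin G) and Cst7 (cystatin F) 1 each. The late neutrophil genes S100a8, Ly6g, Itgb2 and Cybb had 2 each and Chil3 1. Ly6c2, the surface antigen of inflammatory monocytes, had 3 and Tlr4, the receptor for endotoxin, 2, while Ccr2, F13a1 (coagulation factor XIII) and Csf1r (the M-CSF receptor) had 1 each. Of the factors, Zeb2 had 3, Cebpd and Rxra 2 each, and Bach1 and Egr2 1 each. Of the receptors, Il1r1 and Ifngr1 had 3 each, Tnfrsf1a (a TNF receptor) 2, and Csf2rb (the common β chain) 1. Genes of other lineages were not absent, with 3 each at Kit (the stem cell factor receptor) and Lmo2 (an erythroid and stem cell cofactor), 2 each at Erg, Prdm16, Bach2, Gata3 and Tcf4, and 1 each at Hoxb4, Cd34, Car2, Gfi1b, Vwf, Ikzf1, Ikzf3, Notch1, Epx, Mcpt8, Ly6d, Ddx58 and Oas3. The protein-coding genes with the most were Cdk6, a cell-cycle kinase, and Vav3 (10 each), then Gm826 and Mbnl1 (9 each), Elmo1 (8), and Ankrd44, Clasp1, Kcnn3, Lrrfip1 and Pde4d (7 each). Antxr2, Arhgef28, Arid5b, Foxn3 and Igf1r had 6 each. Most of these are long genes, from 130.2 kb (Lrrfip1) to 1504 kb (Pde4d), apart from Gm826 (22.8 kb), and they had 3 to 45 other distal Daxx-WT GMP peaks besides.

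C/EBP letters set GMP-only peaks apart from the other populations' peaks. The C/EBP motif TTGCNNAA lay within 100 bp of the centre of 24.2% of GMP-only peaks (2092 of 8630, 23.3 to 25.2), against 8.04% of CMP-only peaks (7.28 to 8.87), 8.58% of LT-HSC-only peaks (8.12 to 9.06) and 12.2% of the other distal Daxx-WT GMP peaks (11.9 to 12.5). The Pu.1 motif GAGGAAGT was in 10.4% of GMP-only peaks (9.73 to 11), close to the 10.6% of CMP-only peaks (9.71 to 11.5) and above the 4.71% of LT-HSC-only peaks (4.37 to 5.08). The GATA motif AGATAAG, bound by erythroid, megakaryocytic and mast cell factors, was in 2.47% of GMP-only peaks, 5.75% of CMP-only peaks and 4.73% of LT-HSC-only peaks. Only 1.65% of GMP-only peaks held both the C/EBP and the Pu.1 motif, 22.6% held the C/EBP motif without the Pu.1 motif, and 67% held neither. The AP-1 motif TGANTCA (10.7%), the Runx motif TGTGGTT (8.57%), the IRF motif GAAANNGAA (7.8%) and the CTCF motif CCACNAGG (3.88%) completed the set. A match is a description of letters and not of binding, and no match says nothing about a factor. Searching the whole interval raised the C/EBP share to 37.7% and the Pu.1 share to 14.5%.

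**Figure D1:**
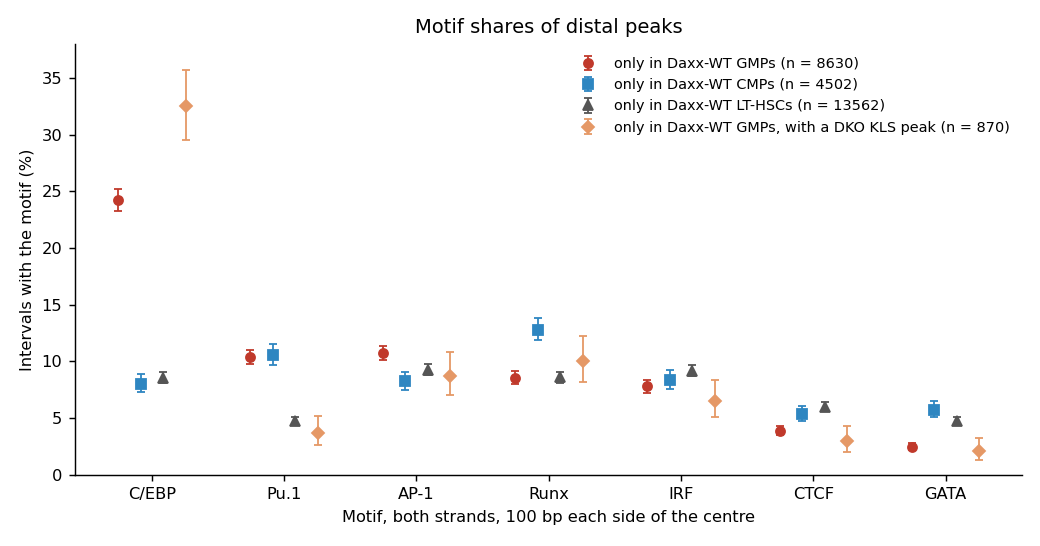
Share of distal peaks with each of 7 motifs within 100 bp of the centre (y axis, percent), for peaks found in a single Daxx-WT population and for GMP-only peaks that also had a DKO KLS peak; points are shares and bars 95% Wilson intervals. The C/EBP share of GMP-only peaks (24.2%) stands above those of CMP-only (8.04%) and LT-HSC-only peaks (8.58%), and the subset in DKO KLS cells has the highest C/EBP share (32.5%) and a low Pu.1 share (3.68%).

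A minority of the GMP-only peaks was found in Daxx-KO GMPs. A Daxx-KO GMP peak overlapped 2769 of 8630 (32.1%, 31.1 to 33.1), while the other distal Daxx-WT GMP peaks were found there at 74.5% (74.1 to 75). The share rose with width, from 13% (11.7 to 14.5) in the narrowest quartile of GMP-only peaks to 48.7% (46.6 to 50.8) in the widest. In each of these 4 width classes the other distal GMP peaks had a higher share (44.8%, 64.5%, 74.4% and 85.9%). The Daxx-KO GMP list was also shorter in all (49677 against 65306 intervals). By definition the other distal GMP peaks were also found in Daxx-WT LT-HSCs or CMPs and GMP-only peaks in neither, which bears on how often each recurs in a further list. The parts of list length and of this selection in the lower share were not tested. With each list reduced to its 22156 widest intervals, the length of the shortest list, the share was 51.7% of the 3218 peaks that then met the rule. GMP-only peaks with the C/EBP motif alone were found in Daxx-KO GMPs at 37.5% (35.4 to 39.7), those with the Pu.1 motif alone at 28.5% (25.3 to 31.8) and those with neither at 30.7% (29.6 to 31.9). GMP-only peaks nearest to genes of the 5 myeloid lists (primary granule, late neutrophil, monocyte, factors and receptors) were, pooled after their values were seen, found there at 30.6% (19 of 62, 20.6 to 43), close to the share of all GMP-only peaks, and by list the counts were 2 of 9, 4 of 13, 4 of 13, 5 of 13 and 4 of 16. Within these lists both Rxra elements, 1 of 2 at Srgn and those at Ctsg, Chil3 and F13a1 were present in Daxx-KO GMPs, and the 4 at Ctsc, the 3 at Ly6c2 and the one at Mpo were not.

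GMP-only peaks were rare in stem and early progenitor cells of either genotype. The rule left out every peak found in Daxx-WT LT-HSCs or CMPs, so low shares in lists of the same or similar cells follow in part from it. Most, 4948 (57.3%), were in none of the other 8 lists, 2685 (31.1%) were in 1 and 798 (9.25%) in 2. Daxx-KO CMPs had 438 of them (5.08%, 4.63 to 5.56), a list that held 25.6% (24.4 to 26.9) of CMP-only peaks. With every list reduced to its widest 22156 intervals the share was 22.1% of the 3218 peaks that then met the rule. LT-HSCs at 3 d.p.i. had 46 in the Daxx-WT list (0.533%, 0.4 to 0.71) and 95 in the Daxx-KO list (1.1%, 0.901 to 1.34). KLS cells had 38 in the Daxx-WT list (0.44%, 0.321 to 0.604) and 149 in the Daxx-KO list (1.73%, 1.47 to 2.02). In both pairs the Daxx-KO list was also the longer one in all (44326 against 36949 at 3 d.p.i., and 44694 against 33325 in KLS cells). Reducing all lists to their widest 22156 intervals also shortened the lists that the rule uses, so the 3218 peaks were a different set. In that set the order was the other way, with 8.95% in Daxx-KO against 10.9% in Daxx-WT LT-HSCs at 3 d.p.i. and 11.4% against 15.1% in KLS cells. It does not tell whether the order in the GMP-only peaks came from list length.

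**Figure D2:**
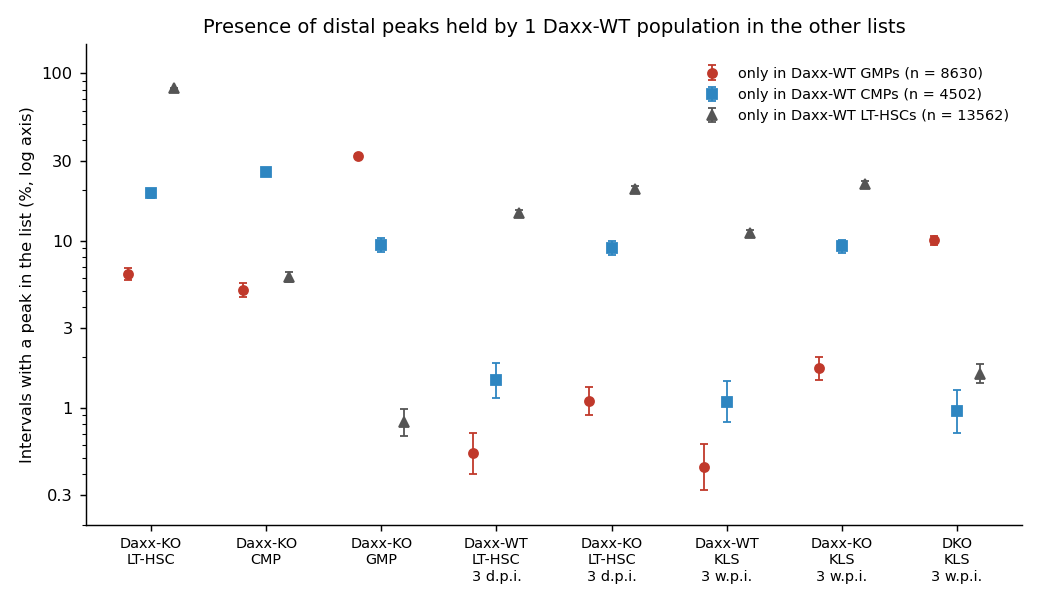
Share of distal peaks found in a single Daxx-WT population that overlap a peak of each of the 8 other lists (y axis, percent, log axis); red circles are GMP-only, blue squares CMP-only and grey triangles LT-HSC-only peaks, with 95% Wilson intervals. GMP-only peaks are the lowest of the 3 sets in the 4 LT-HSC and KLS lists from 3 d.p.i. and 3 w.p.i. of Daxx-WT and Daxx-KO cells, and the highest in the Daxx-KO GMP list (32.1%) and in the DKO KLS list (10.1%). The sets were chosen on Daxx-WT lists of LT-HSCs, CMPs and GMPs, which bears on their order in lists of the same or similar cells.

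Early opening in Daxx-KO stem cells took up a small part of the GMP-only peaks. The Daxx-KO LT-HSC list without a time label held 543 of 8630 (6.29%, 5.8 to 6.82), against 865 of 4502 CMP-only peaks (19.2%, 18.1 to 20.4). This list is the longest of the series, with 70455 intervals against 65455 in Daxx-WT LT-HSCs. Of GMP-only peaks with a Daxx-WT LT-HSC or CMP peak within 500 bp, 12.6% were in it, and of the 7882 without one, 5.7%. At 3 d.p.i., 82 GMP-only peaks had a Daxx-KO and no Daxx-WT peak (0.95%, 0.766 to 1.18) and 33 the reverse (0.382%, 0.272 to 0.537). In KLS cells 134 had a Daxx-KO and no Daxx-WT peak (interval 1.31 to 1.84%) and 23 the reverse (0.267%, 0.178 to 0.4). LT-HSC-only peaks had more Daxx-KO than Daxx-WT peaks as well (1493 against 707 at 3 d.p.i., 1956 against 494 in KLS cells). The same counts for CMP-only peaks were 366 (8.13%) and 26 (0.578%) at 3 d.p.i., and 383 (8.51%) and 16 (0.355%) in KLS cells. A peak in at least 1 of the 3 Daxx-KO LT-HSC and KLS lists was present for 668 GMP-only peaks (7.74%, 7.2 to 8.32) and for 29.1% (27.7 to 30.4) of CMP-only peaks.

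The GMP-only peaks found in Daxx-KO LT-HSCs held fewer C/EBP motifs than the rest. The C/EBP share was 12.9% (70 of 543, 10.3 to 16) with and 25% (24.1 to 26) without a Daxx-KO LT-HSC peak, while the Pu.1 share was 9.02% (6.89 to 11.7) with and 10.4% (9.8 to 11.1) without. In the Daxx-KO KLS list the C/EBP share was likewise 14.1% (21 of 149, 9.41 to 20.6), and the Pu.1 share was 13.4% (8.86 to 19.8).

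Both Daxx-KO LT-HSC lists and neither Daxx-WT LT-HSC list held 45 GMP-only peaks (0.521%, 0.39 to 0.697), against 165 CMP-only peaks (3.67%, 3.15 to 4.25). For both sets the rule itself excludes the Daxx-WT LT-HSC list without a time label. With that list left aside, 10.3% of LT-HSC-only and 12.2% of the other distal GMP peaks had the pattern. Of the 45, 22 also had a Daxx-KO GMP peak, 12 a Daxx-KO KLS peak, 10 the C/EBP motif and 2 the Pu.1 motif. Among the 45, 2 were nearest to a gene of the myeloid lists. The Ccr2 element (chr9:124081276-124081877, between genes, 20073 bp from the start site, shown above) had a peak in all 5 Daxx-KO lists and in no Daxx-WT list other than that of GMPs, nor in DKO KLS cells. The Zeb2 element in an intron (chr2:45033561-45034695, 9891 bp from the start site) had peaks in both Daxx-KO LT-HSC lists and in no other of the 8 lists. A Ly6g element (chr15:75175527-75175893, between genes), chosen after its values were seen, had a peak in Daxx-KO LT-HSCs without a time label and in Daxx-KO KLS cells, though not in Daxx-KO GMPs.

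DKO KLS cells were the exception among the stem and KLS lists. A DKO KLS peak overlapped 870 GMP-only peaks (10.1%, 9.46 to 10.7), although that list was the shortest of the 11. It held 0.955% (0.71 to 1.28) of CMP-only and 1.59% (1.4 to 1.82) of LT-HSC-only peaks. For LT-HSC-only peaks the share was 11.1% in Daxx-WT and 21.9% in Daxx-KO KLS cells, so GMP-only and LT-HSC-only peaks stood in the opposite order in DKO cells. Of the 870, 838 had a peak in neither the Daxx-WT nor the Daxx-KO KLS list (9.71% of GMP-only peaks, 9.1 to 10.4), and 25 CMP-only (0.555%) and 49 LT-HSC-only peaks (0.361%) had that pattern. The share rose with width from 2.72% (2.12 to 3.49) in the narrowest to 19% (17.4 to 20.7) in the widest quartile, and CMP-only and LT-HSC-only peaks of the same widths reached 1.75% (1.11 to 2.76) and 2.07% (1.79 to 2.38) at most. The other distal Daxx-WT GMP peaks, most of them shared with CMPs, were in the DKO list at 20% (19.6 to 20.4), and many of them had a Daxx-WT or Daxx-KO KLS peak as well. Among peaks with neither, a restriction chosen after seeing the data, a DKO KLS peak was present at 9.91% (838 of 8458, 9.29 to 10.6) of GMP-only peaks and at 7.09% (1097 of 15474, 6.7 to 7.5) of the other distal GMP peaks, so the gap between these sets was small beside that to CMP-only (0.614%, 0.416 to 0.905) and LT-HSC-only peaks (0.485%, 0.367 to 0.641). With the lists reduced to their widest intervals the rule chose other sets, of 3218 GMP-only, 1900 CMP-only and 4459 LT-HSC-only peaks. Of these, 25.9%, 15.3% and 14.3% were in the DKO list.

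**Figure D3:**
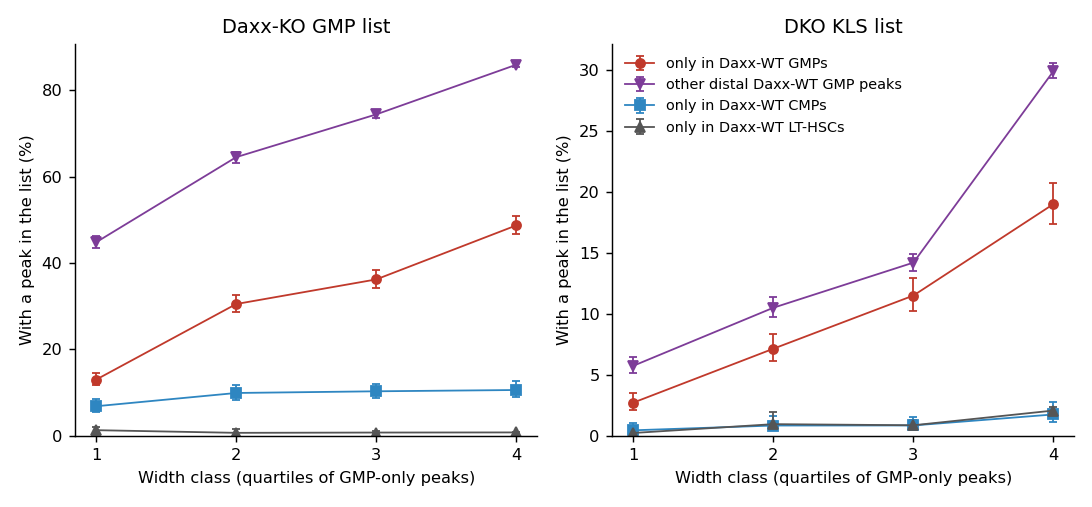
Share of distal peaks with a Daxx-KO GMP peak (left) or a DKO KLS peak (right) in 4 width classes bounded by the quartiles of GMP-only peaks, class 1 the narrowest; points are percent with 95% Wilson intervals. GMP-only peaks (red) rise from 13% to 48.7% on the left and from 2.72% to 19% on the right, below the other distal GMP peaks in every class and above CMP-only and LT-HSC-only peaks.

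The GMP-only peaks found in DKO KLS cells were rich in C/EBP and poor in Pu.1 letters. The Pu.1 motif was in 3.68% of the 870 (32, 2.62 to 5.15) and in 11.1% (10.4 to 11.8) of the 7760 without a DKO peak. The C/EBP motif was in 32.5% (283, 29.5 to 35.7) and 23.3% (22.4 to 24.3) of them, respectively. Put the other way, a DKO KLS peak was present at 14.1% (12.6 to 15.7) of GMP-only peaks with the C/EBP motif alone, at 3.06% (2.05 to 4.55) with the Pu.1 motif alone, at 6.34% (3.37 to 11.6) with both and at 9.75% (9.01 to 10.5) with neither. All distal DKO KLS peaks, GMP-only or not, had the Pu.1 motif at 4.32% (3.94 to 4.74) and the C/EBP motif at 15.8% (15.1 to 16.5), against 7.11% (6.75 to 7.5) and 8.94% (8.54 to 9.36) of all distal Daxx-WT KLS peaks. The low Pu.1 share was therefore also a property of the whole DKO list. GMP-only peaks found in DKO KLS cells were also in Daxx-KO GMPs more often, at 61.6% against 28.8% of those not found in DKO KLS cells. Their authors' fold enrichment within the DKO list had a median of 4.25, at the percentile 34.6 of that list, next to 4.2 for all its distal peaks. In the Daxx-KO KLS list the GMP-only overlaps were weaker relative to the list, at the percentile 22.3 against 43.1 for its distal peaks.

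A DKO KLS peak lay at 11 of the 62 GMP-only peaks nearest to genes of the myeloid lists (17.7%, 10.2 to 29), against 10.1% of all GMP-only peaks. These were the elements at S100a8, S100a9, Chil3 and Itgb2 (late neutrophil), 2 at Ly6c2 (monocyte), those at Spi1, Rxra and Zeb2 (factors) and those at Il1r1 and Ifngr1 (receptors). None of the 9 at primary granule genes had one, which at this number allows a share of up to 29.9%. The Spi1 element lay in an intron of the gene that encodes Pu.1 itself (chr2:91089087-91089727, 6369 bp from the nearest start site). The erythroid and megakaryocyte genes (0 of 6 GMP-only peaks, an interval up to 39%) and the stem cell genes (0 of 10, up to 27.8%) had too few peaks to be set apart from the 10.1% of all GMP-only peaks.

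The authors' tables give reads per library at selected sites, each library divided by a constant, here called scaled reads. Sites were selected by the authors on the same libraries, so the tests below are not independent of that selection. The labels name no separate animals, so p-values measure the spread between these libraries. In the DKO table the fit gave every site named below the same SE of 0.36, a spread pooled over sites. There the SE and p-values do not reflect how well a site's own libraries agree. Sites overlapping a GMP-only peak numbered 144 of 11927 in the 3 d.p.i. table, 426 of 17311 in Daxx-KO KLS cells and 2234 of 50928 in DKO KLS cells. These touched 1.68%, 4.95% and 26% of GMP-only peaks. CMP-only peaks were touched at 7.13%, 5.38% and 7.84%, LT-HSC-only peaks at 4.98%, 5.72% and 13.8%, and the other distal GMP peaks at 4.39%, 5.5% and 25.1%, so that the share in the DKO table was near that of distal GMP peaks in general. Differences are on the log2(scaled reads + 1) scale, which understates those of low sites. The 2 KLS tables share their Daxx-WT libraries, so their values are given side by side only.

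In DKO KLS cells nearly all of the sites at GMP-only peaks were higher than in Daxx-WT. The median scaled reads at these 2234 sites in the 2 DKO libraries were 80.6 and 76.4, while both Daxx-WT libraries were lower (25.7 and 36.2). Both DKO libraries exceeded both Daxx-WT libraries at 2148 sites (96.2%) and fell below both at 86 (3.85%), where over all sites of the table those shares were 72.1% and 27.8%. The median difference was 1.39 at sites of GMP-only peaks and 1.29 over all sites. Sites at LT-HSC-only peaks lay on the other side, with 303 of 1882 higher (16.1%, 14.5 to 17.8) and a median of -1.08, and sites at the other distal GMP peaks had 30.6% higher. By the rule GMP-only peaks had no Daxx-WT LT-HSC or CMP peak, while the peaks of these other sets had one. The choice of peaks therefore bears on the direction against Daxx-WT KLS cells, and its part was not tested. Sites at CMP-only peaks had 248 of 353 higher (70.3%, 65.3 to 74.8). By limma with Benjamini-Hochberg adjustment over all 446463 windows tested, 1975 sites at GMP-only peaks were higher (88.4%, background 67.3%) and 63 lower (2.82%, background 14.9%). Leaving out either DKO library left 0 calls by limma in each direction, with medians of 1.37 and 1.41. Scaling each library to its mean per window, which was higher in DKO libraries, lowered the median over all sites to 0.62 and that at GMP-only peaks to 0.71, with 2146 of 2234 sites still higher but 129 passing limma. Without the first Daxx-WT library 981 were called higher and 35 lower, and without the second 33 were called lower.

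Direction and motif went together at these sites too. The Pu.1 motif was in 4.76% (3.94 to 5.74) of the 2162 GMP-only peaks with a higher DKO site, in 15.5% (9.27 to 24.7) of the 84 with a lower site and in 12.2% (11.4 to 13) of the 6382 without a site. The C/EBP motif was in 30.3% (28.4 to 32.3), 17.9% (11.1 to 27.4) and 22.2% (21.2 to 23.3) of them. Of the GMP-only peaks with a higher DKO site, 48.3% (46.2 to 50.4) had a Daxx-KO GMP peak, and of those without a site 26.6% (25.5 to 27.7).

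**Figure D4:**
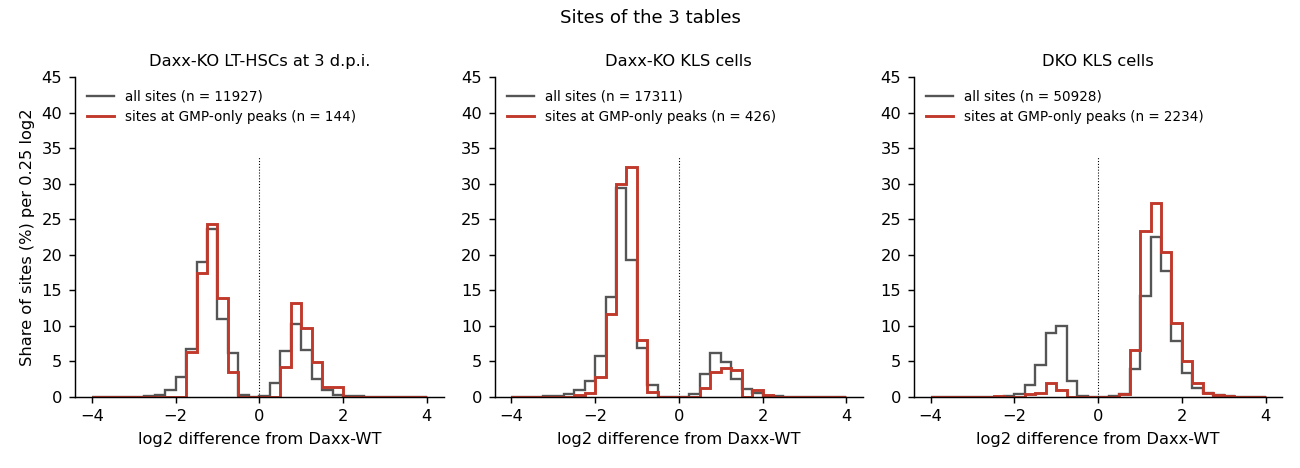
Distribution of the log2 difference from Daxx-WT (x axis, 0.25 per step) at sites overlapping GMP-only peaks (red) and at all sites (grey) of the 3 tables, as percent of sites. Red and grey are alike in the Daxx-KO tables, with most sites below 0, whereas in the DKO table the grey lower mode (27.8% of sites) is nearly missing from the red line (3.85%).

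Near myeloid genes the DKO sites went the same way in most cases, as did 96.2% of all sites at GMP-only peaks. All 8 sites at late neutrophil genes, both at primary granule genes, all 3 at monocyte and macrophage genes and all 5 at the factors were higher in both DKO libraries than in either Daxx-WT library, and so were 3 of 5 at cytokine receptors. Irf8 is in both the monocyte and the factor list, so its site is counted in each. At Cebpd, which encodes C/EBPδ, scaled reads were 76.3 and 82.4 in DKO and 12.4 and 29.6 in Daxx-WT KLS cells (log2 difference 1.99 ± 0.36, the pooled SE from the fit, limma adjusted p = 4.76e-06). At the site over the Itgb2 element shown above, whose nearer edge is 18190 bp from the start site, they were 186.6 and 213.6 against 38.2 and 71.3 (1.92 ± 0.36, limma adjusted p = 1.12e-05). At Fpr2, a formyl peptide receptor of neutrophils, they were 55.1 and 56.2 against 9.8 and 20.8 (1.89 ± 0.36, limma adjusted p = 1.56e-05). The groups did not overlap at any of these 3 sites. All 17 sites at granule, neutrophil, monocyte and factor genes passed limma as higher, beside 88.4% of all sites at GMP-only peaks. Once libraries were scaled to their mean per window, 0 of the 17 did (10 had an unadjusted limma p under 0.05). The values at Cebpd, Itgb2 and Fpr2 were then 1.31, 1.23 and 1.22 (limma adjusted p = 0.0667, 0.0618 and 0.0857).

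At Rxra, a nuclear receptor with roles in myeloid cells, scaled reads were 273.6 and 256.7 in DKO against 61.2 and 83.4 in Daxx-WT (1.88 ± 0.36, limma adjusted p = 1.75e-05). At Ctsg they were 95.4 and 79.6 against 19.5 and 49.4 (1.46 ± 0.36, limma adjusted p = 0.00117), and at Irf8, a factor of monocytes and dendritic cells, 59.4 and 60 against 16 and 26.3 (1.49 ± 0.36, limma adjusted p = 8.20e-04). The Ctsg and Irf8 elements had no DKO peak in the list, so their gain shows in the reads alone. The Spi1 site, which covers 314 of the 641 bp of the GMP-only peak, had 314.9 and 270.8 against 110.9 and 119.5 (1.33 ± 0.36, limma adjusted p = 0.00347), at a gene whose floxed copies are carried by these mice. S100a8, S100a9 and Chil3 had smaller differences of 1.31, 1.19 and 1.17 (limma adjusted p = 0.00419, 0.0125 and 0.0144). Under mean scaling these were 0.65, 0.51 and 0.48, with 1.19 at Rxra, 0.78 at Ctsg, 0.82 at Irf8 and 0.64 at Spi1, none past the threshold (limma adjusted p = 0.0633 at Rxra, the lowest of these).

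Il1r1 showed both directions within a single gene. Its C/EBP-motif element 3973 bp from a start site, shown above, had 59.4 and 86.2 scaled reads in DKO against 34.6 and 27.4 in Daxx-WT (1.19 ± 0.36, limma adjusted p = 0.0122), while the element 36753 bp from the nearest start site, which holds the Pu.1 motif, had 11.7 and 16.9 against 41.7 and 35.1 (-1.38 ± 0.36, limma adjusted p = 0.00221). The remaining Il1r1 element with neither motif also had lower reads (75.3 and 55.3 against 140.2 and 133.8, -1.07 ± 0.36, limma adjusted p = 0.0313). Prdm16, a stem cell factor, had 72.1 and 56.2 against 213 and 190.8 (-1.65 ± 0.36, limma adjusted p = 1.95e-04). Under mean scaling the 2 lower Il1r1 sites and Prdm16 were at -2.05, -1.76 and -2.34 (limma adjusted p = 0.00272, 0.00701 and 0.0027), whereas the higher Il1r1 site was at 0.51 and did not pass. In Daxx-KO KLS cells the Il1r1 sites at the C/EBP-motif and the Pu.1-motif element were both lower than in Daxx-WT (-1.85 and -1.26). The site at the element with neither motif was higher there (0.77), and none of these passed limma. Over the whole DKO table the highest differences at GMP-only peaks were at Gm47975 (79.5 and 50.6 against 5.3 and 6.6, 3.22), Cmtm1 (196.2 and 164.9 against 13.3 and 36.2, 2.97) and Dym (143.2 and 119.9 against 13.3 and 19.7, 2.94). The lowest were at Gm10556 (7.4 and 25.3 against 81.7 and 77.9, -2.44), Gm49029 (50.9 and 33.7 against 152.6 and 127.2, -1.73) and Gm29328 (6.4 and 9.4 against 21.3 and 32.9, -1.65).

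**Figure D5:**
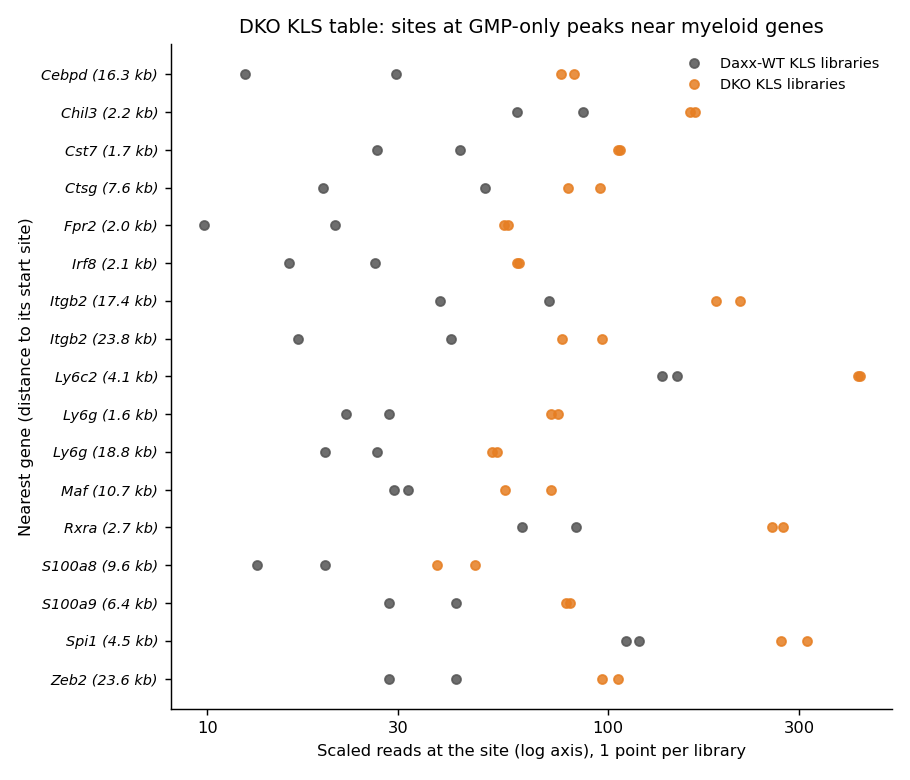
Scaled reads (x axis, log axis) at the 17 DKO table sites that overlap GMP-only peaks near primary granule, neutrophil, monocyte and factor genes, 1 point per library, orange for the 2 DKO and grey for the 2 Daxx-WT KLS libraries; the y axis names the nearest gene and the distance of the site from its start site. At every site both DKO points lie to the right of both Daxx-WT points, as they do at 96.2% of all sites at GMP-only peaks.

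In bulk samples, more cells of a kind and more open DNA per cell cannot be told apart, and the KLS gate can hold committed cells in different shares. In the DKO table, sites at mast cell, basophil and eosinophil genes (Epx and Mcpt8) and at interferon-stimulated genes (Ddx58 and Oas3) were also higher, 2 of 2 each, as were both sites at Lmo2. The part of cell composition in the DKO values was not tested.

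In Daxx-KO KLS cells, where sites were selected and scaled separately, most sites at GMP-only peaks were lower than in Daxx-WT. The median scaled reads were 17.8, 14.9 and 14.1 in the 3 Daxx-KO libraries, below the 29.2 and 39 of Daxx-WT. All Daxx-KO libraries exceeded both Daxx-WT libraries at 56 of 426 sites (13.1%, background 18.8%) and fell below both at 366 (85.9%, background 80.8%), with a median difference of -1.22 against -1.27 over all sites. No site passed limma in either direction among the 426 or among all 17311 (background 0%), though 420 had an unadjusted limma p under 0.05. By contrast 190 of 240 sites at CMP-only peaks were higher (79.2%, 73.6 to 83.8). Sites at the other distal GMP peaks were higher at 56.6% (54.5 to 58.8), with a median difference of 0.65, and those at LT-HSC-only peaks at 25.1%. At S100a8, scaled reads were 8.9, 8.8 and 10.3 in Daxx-KO against 23.7 and 27.5 in Daxx-WT KLS cells (-1.36 ± 0.28, limma adjusted p = 0.284). At S100a9 they were 13.4, 7.9 and 15.1 against 27.4 and 35.5 (-1.34 ± 0.35, limma adjusted p = 0.284), and at Egr2 7.8, 15.8 and 5.6 against 31 and 35.5 (-1.78 ± 0.41, limma adjusted p = 0.284). None of the 3 genes had overlapping groups, and none passed the threshold. The Daxx-KO site at S100a8 shares 66 bp with the GMP-only peak of 506 bp and does not overlap the DKO site there, so the 2 tables measured different stretches at this gene.

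The largest positive differences in Daxx-KO KLS cells were at Mir383 (36.7, 61.2 and 74.3 against 12.8 and 9.2, 2.25), Gm48358 (76.8, 91.8 and 134.5 against 26.4 and 21.8, 1.99) and AC140469.1 (71.3, 83.1 and 75.3 against 18.2 and 21.8, 1.89), each with limma adjusted p = 0.284. The largest negative ones were at Daam1 (10, 0 and 10.3 against 22.8 and 24.1, -2.29 ± 0.93), Poli (10, 6.1 and 2.8 against 20.1 and 35.5, -2.05) and Plcb4 (15.6, 15.8 and 16 against 69.3 and 63). Of GMP-only peaks with a lower site in Daxx-KO KLS cells, 27.1% (100 of 369, 22.8 to 31.9) had a DKO KLS peak and 48.2% (43.2 to 53.3) a Daxx-KO GMP peak. Of the 8203 without a site in that table, 9.28% and 31.3% had them.

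At 3 d.p.i. the LT-HSC sites that lay on GMP-only peaks also followed the table as a whole. The 3 Daxx-KO libraries had medians of 29.4, 24.8 and 30.6 scaled reads and the 2 Daxx-WT libraries 40.6 and 35.6. All Daxx-KO libraries lay above both Daxx-WT libraries at 50 of 144 sites (34.7%, background 28.8%) and below both at 94 (65.3%, background 70.7%), and the median difference was -0.96 against -1.05 over all sites. No site passed limma in either direction among these or over the table (background 0%), while all 144 had an unadjusted limma p under 0.05. At CMP-only peaks 286 of 319 sites were higher (89.7%, 85.8 to 92.5). Sites at the other distal GMP peaks were also unlike those at GMP-only peaks, with 63.5% higher (61.1 to 65.8) and a median difference of 0.64. At LT-HSC-only peaks 25.1% were higher.

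The largest difference upwards at 3 d.p.i. was at the Ccr2 element, with 63.3, 64.9 and 72.8 scaled reads in Daxx-KO against 20.3 and 15 in Daxx-WT LT-HSCs (1.88 ± 0.24, limma adjusted p = 0.301). Acsl1, a fatty acyl-CoA ligase, followed with 32.1, 18.1 and 44.3 against 9 and 6.6 (1.82 ± 0.37), then Gm24500 with 58.7, 39.1 and 35.9 against 22.5 and 8.4 (1.58 ± 0.41). Srgn (163.3, 84 and 120.3 against 74.4 and 55.3, 0.87 ± 0.32), Il3ra, the interleukin-3 receptor α chain (205.6, 213.8 and 190 against 102.5 and 99.4, 1.00 ± 0.22), and the intronic Il1r1 element without a motif (145.9, 128.8 and 109.8 against 60.9 and 75, 0.90 ± 0.24) had higher values in all Daxx-KO libraries, and Csf2rb (20.2, 15.3 and 13.7 against 30.4 and 34.7, -0.96 ± 0.25) lower ones. None of these passed the threshold. Downwards, Hipk3 (13.8, 3.8 and 15.8 against 39.4 and 27.2, -1.67), Gm22069 (11.9, 3.8 and 8.4 against 27 and 23.4, -1.64) and Gm49348 (8.3, 13.4 and 10.6 against 34.9 and 34.7, -1.63) came first. The second Daxx-KO library, which gave the lowest values at Hipk3 and Gm22069, was the shallowest in the headers, with 4.21 reads per window against 9.49 and 9.59. Of the 50 GMP-only peaks with a higher site at 3 d.p.i., 46% (33 to 59.6) had a Daxx-KO GMP peak, 26% (15.9 to 39.6) a Daxx-KO CMP peak and 2% (0.354 to 10.5) the Pu.1 motif.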

How the data were processed

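ATAC-seq libraries of sorted mouse cells were processed by the authors on mm10; the labels name CASAVA 1.8.4, cutadapt 1.13, STAR 2.5.3 and bedtools. The 6 lists without a time label hold positions alone, and their peak caller is not given in the sources used here. The other 5 deposited lists are reproducible-peak files with a score, a ratio (fold enrichment over background) and −log10 p-values by the authors. Of these values only the fold was used here. Rows with the same start and end within a list were counted once, with their highest fold. The 3 tables of sites came from diffReps 1.55.6 (windows of 600 bp, step 50 bp, p-value cutoff 0.0001). They give scaled read numbers per library, and a mean signal per group by the authors that was not used. Their columns of fold changes, p-values and adjusted p-values of the authors' own comparisons were not used.

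Peaks, distances (GENCODE M21 start sites), nearest genes and motifs (100 bp either side of the centre, both strands) were computed with Python 3.11.15, pandas 2.3.3 and pysam 0.24.0. Shares carry 95% Wilson intervals (scipy 1.17.1). Site values were fitted as log2(value + 1) per table with limma 3.58.1 (R 4.3.3) and Benjamini-Hochberg adjustment over all windows tested, with a threshold of 0.05, and the script was tested on simulated data. Because the lists have no depth and the tables give only mean reads per window, precision beyond counting error is known for the tables alone. Replicate numbers in the 2 KLS tables were shared names only (correlations of the replicate deviations 0.035 and -0.00308).

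Members and gene lists were chosen with earlier results of these data known. Named were up to 5 genes per list with the most peaks, the 15 protein-coding genes with the most, the 3 sites per table and direction with the largest differences and no overlap of groups, and myeloid-list peaks in both Daxx-KO LT-HSC lists. Other sites at listed genes were chosen after their values were seen.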

Additional observations from a re-analysis of the deposited data

How the results depend on the processing

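Shares of list intervals moved most when every list was reduced to its 22156 widest intervals. That also changed which peaks met the rule, to a set of 3218. Of that set, 51.7% had a Daxx-KO GMP peak, 22.1% a Daxx-KO CMP peak and 5.59% a Daxx-KO LT-HSC peak. A Daxx-KO and no Daxx-WT peak was present for 3.98% at 3 d.p.i. and for 5.16% in KLS cells, and a DKO KLS peak for 25.9%. Counting peaks within 500 bp as shared gave 6.9% with a Daxx-KO LT-HSC peak and 1.22% with the 3 d.p.i. pattern, and searching whole intervals gave motif shares of 14.5% (Pu.1) and 37.7% (C/EBP); the cause was not tested. Scaling libraries to their mean per window moved the median difference to -0.63 in the 3 d.p.i. table, to -0.75 in the Daxx-KO table of KLS cells and to 0.71 in the DKO table, where 129 sites were then higher. Adjusting over the listed sites alone gave 50 higher and 94 lower sites for the 3 d.p.i. table, and for Daxx-KO KLS cells 55 higher and 364 lower, since fewer tests enter. With the replicate number as a block, 6 Daxx-KO KLS sites were higher and 20 lower, and the DKO table had 1992 higher and 67 lower; these numbers did not pair the libraries. For the 3 d.p.i. table no such fit could be made, since its columns carry no replicate numbers. Leaving out 1 library gave 0 to 1824 higher and 0 to 35 lower sites in DKO KLS cells and 0 in the Daxx-KO tables, where a lone library is assumed to vary like the other group. Of the results under alternatives, 110 stayed within their limits and 34 moved, 7 of the latter being gene list counts. A count test (edgeR) on recovered reads was not run. Lists without replicates and 2 DKO libraries limit all values.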
